A study of Mus musculus with 47 samples.

Results

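ChIP-seq peak lists of 4 antibodies were compared with each other inside mouse liver tumours whose Myc transgene was on. The antibodies were raised against Myc itself, against RNA polymerase II (RNAPII) and against the histone marks H3K4me3 and H3K27ac. The comparison took 18 of the 46 peak lists of the study, of which 6 were for Myc (tumours T1 to T6) and 4 each for RNAPII, H3K4me3 and H3K27ac (T1 to T4). For each antibody the lists were merged wherever peaks shared at least 1 bp, and regions present in at least 2 tumours were kept. This gave 38418 Myc regions, 14333 RNAPII regions, 14928 H3K4me3 regions and 13389 H3K27ac regions, 81068 in all. All mice were of strain FVB. The tumours were nodules of tet-Myc/LAPtTA mice, in which the liver-specific transactivator LAPtTA had driven a tet-Myc transgene since before birth. The protocol allows for an unaltered and a mutated form of the transgene, and which form a given tumour expressed is not stated. A pair of further groups served as a background for persistence. One was tumours of the same genotype switched off with doxycycline food for 16 h, with 3 lists for each antibody. The other was normal liver with 4 lists for each antibody, where liver 1 had tet-Myc with its expression off, liver 2 had LAPtTA, and livers 3 and 4 had the wild-type genotype. Ages and the number of animals were not given, so a p-value here reflects variation from list to list, which may be technical where lists share an animal.

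Myc is a transcription factor that pairs with Max, binds E-box DNA in gene promoters and enhancers, and acts on RNAPII recruitment and elongation. H3K4me3 is the histone mark of active and poised promoters. H3K27ac marks active promoters and active enhancers, and its broad stretches are often called super-enhancers. An antibody against total RNAPII sees the enzyme paused at promoters as well as along transcribed gene bodies. In liver tumours of this kind the cells depend on continued Myc expression.

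The lists hold positions called by the authors and no gene names, and no genome of their build (mm9) was used, so regions are given by coordinates and the tissue could not be checked against marker genes. The depth of the libraries is unknown, so a region without a peak is one where no peak was called. Each list was made from bulk tissue, so a mark on fewer cells and a weaker mark in every cell cannot be told apart, and a shared region does not show that 2 proteins sat on the same molecule. Myc lists differed most in size, with 19269, 21570, 25742, 38814, 41558 and 55763 peaks in T1 to T6. RNAPII lists held 17868, 16410, 14444 and 12708 peaks, H3K4me3 lists 14502 to 14942, and H3K27ac lists 12805 to 15510. The base pairs shared by a pair of lists of the same antibody made up 69.6% to 74.5% of their joint length for H3K4me3, 56.1% to 63.0% for H3K27ac, 31.6% to 57.1% for RNAPII and 17.8% to 59.6% for Myc. No 2 lists were identical. The Myc lists of the 3 switched-off tumours held 98 to 331 peaks.

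In tumours the 3 chromatin antibodies formed a shared core, and Myc lay in almost all of it but also far outside. When the regions of all 4 antibodies were joined into sites wherever they touched, 26754 sites resulted, covering 247 Mb. Of these, 8953 sites (33.5%) held regions of all 4 antibodies, and these sites held 62.8% of the covered length. A further 12044 sites (45.0%) held 1 antibody alone and made up 11.0% of the length. Most of them, 9014 sites, were Myc alone, with a median width of 711 bp and 2.94% of the length. H3K4me3 alone accounted for 1640 sites, RNAPII alone for 1341, and H3K27ac alone for 49. Alone here means without a region of another antibody, though a peak of 1 tumour may lie there. Without any peak of another antibody in these tumours were 7443 Myc, 1011 H3K4me3, 1016 RNAPII and 7 H3K27ac regions. The site counts thus split mainly between a wide shared class and a narrow class of Myc regions without a region of the others. Chromatin lists were at hand for T1 to T4 alone. Myc regions found only in T5 and T6 thus had no chromatin list of the same number.

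Seen from the chromatin side, nearly every H3K27ac region met Myc. Of the H3K27ac regions 98.9% overlapped a Myc region, against 86.9% of the RNAPII regions and 85.5% of the H3K4me3 regions. Widths bear on these shares. Only 50.7% of H3K27ac regions had their midpoint inside a Myc region, against 50.1% for RNAPII and 67.6% for H3K4me3, and Myc regions covered 26.2% of the H3K27ac length, 25.1% of the RNAPII length and 50.5% of the H3K4me3 length. Seen from the Myc side, 69.1% of Myc regions overlapped H3K27ac, 49.1% RNAPII and 40.7% H3K4me3. Among the chromatin antibodies, 77.1% of H3K4me3 regions overlapped RNAPII and 75.8% overlapped H3K27ac, while 74.8% of RNAPII regions overlapped H3K4me3 and 82.9% overlapped H3K27ac.

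Peak by peak, the share of a Myc list that lay in chromatin regions was highest in the shortest list and lowest in the longest. In RNAPII regions lay 75.2%, 70.6%, 68.9%, 57.0%, 49.4% and 43.1% of the Myc peaks of T1 to T6. In H3K4me3 regions lay 64.8%, 58.5%, 59.4%, 48.1%, 41.1% and 32.7%, and in H3K27ac regions 90.3%, 88.6%, 83.8%, 76.0%, 68.0% and 63.2%. T1 was highest and T6 lowest for each of the 3 targets. Myc peaks lay in H3K4me3 regions to 50.8% ± 12.3 (SD, n = 6), against 73.4% ± 8.18 of RNAPII peaks and 73.1% ± 4.45 of H3K27ac peaks (SD, n = 4 each). The ranges of Myc did not overlap those of the others (two-sided exact permutation p = 0.0143 for each pair). After Benjamini-Hochberg adjustment over the 12 comparisons of this kind both stood at 0.0571, and no comparison passed 0.05, while 6 had an unadjusted p under it. With each antibody's lists cut to equal length by score (by width for RNAPII), Myc peaks lay in H3K4me3 regions to 60.2%, against 76.4% of H3K27ac peaks (exact permutation adjusted p = 0.0286). For Myc against RNAPII the difference of -22.6 points became -5.74 under a stricter score limit and -11.4 by midpoint (exact permutation adjusted p = 0.436 and 0.48). Over the 6 alternative settings the adjusted p of Myc against H3K27ac ran between 0.0286 and 0.638. T5 and T6 entered for Myc alone. With T1 to T4 only, the Myc mean was 57.7%, and the differences were -15.7 points to RNAPII and -15.4 points to H3K27ac.

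The share of peaks in Myc regions was highest in the H3K27ac lists when any overlap counted, and their rank changed when the midpoint counted. The 4 H3K27ac lists lay there to 97.9%, 98.8%, 98.1% and 99.2%. RNAPII lists reached 79.4%, 83.6%, 82.3% and 89.4%, and H3K4me3 lists 88.1%, 87.0%, 85.5% and 85.1%. No H3K27ac list overlapped the range of the other 2 antibodies (two-sided exact permutation p = 0.0286 for each pair, the smallest that 4 against 4 lists allow, adjusted p = 0.0571). Counted by the midpoint of the peak, H3K4me3 peaks lay in Myc regions to 73.4% and H3K27ac peaks to 58.7% (adjusted p = 0.171, exact permutation).

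**Figure D1:**
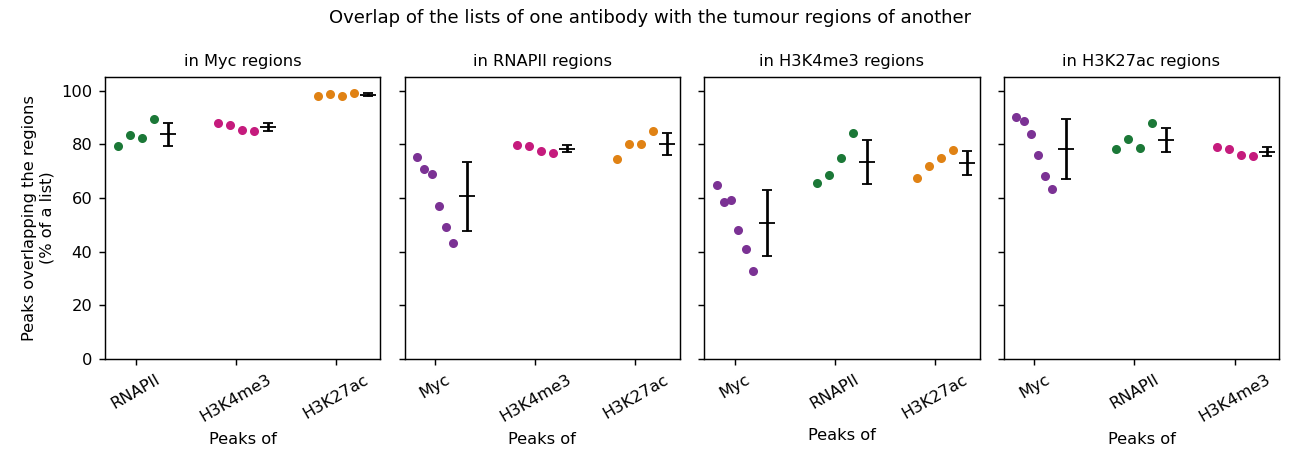
Percent of the peaks of each tumour list (points; n = 6 lists for Myc and 4 for the others) that overlap the tumour regions of another antibody, with the mean and SD beside them. Each panel is 1 target. The H3K27ac lists sit between 97.9% and 99.2% in Myc regions, and the Myc lists spread from 32.7% to 64.8% in H3K4me3 regions.

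Myc regions fell into 8 combinations of the other 3 antibodies, and 4 of these held most of them. Regions with H3K4me3, H3K27ac and RNAPII numbered 12807 (33.3% of Myc regions), those with none of the 3 numbered 9014 (23.5%), those with H3K27ac alone 8298 (21.6%) and those with H3K27ac and RNAPII 4420 (11.5%). The rest were H3K4me3 alone (1220), RNAPII alone (1058), H3K4me3 with H3K27ac (1010) and H3K4me3 with RNAPII (591). Regions in the fully marked class recurred most: 66.9% of them were found in all 6 tumours, against 41.6% with H3K27ac and RNAPII, 24.3% with H3K27ac alone, 8.69% with H3K4me3 alone and 7.57% with none of the 3. Of the regions with none, 51.8% were in just 2 tumours. Their median width was 711 bp, against 1783 bp in the fully marked class. Among the peaks in Myc regions, those with none made up 6.17%, 8.65%, 9.96%, 15.6%, 19.2% and 22.8% in T1 to T6. T5 and T6 had no chromatin lists.

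Around the midpoints of Myc regions the 3 chromatin antibodies had different profiles. At fully marked regions the midpoint was covered in 72.3% ± 20.6 of cases by a Myc list (SD, n = 6), 87.9% ± 5.03 by an RNAPII list, 93.8% ± 1.49 by an H3K4me3 list and 96.3% ± 2.09 by an H3K27ac list (SD, n = 4 each). At 5000 bp towards higher coordinates, H3K4me3 cover was down to 8.25% ± 0.938, RNAPII to 21.5% ± 8.19 and H3K27ac to 32.4% ± 4.35. At Myc regions with H3K27ac alone, H3K27ac covered 78.0% ± 9.47 of midpoints and still 51.8% ± 7.66 at 5000 bp and 38.2% ± 5.18 at 10000 bp. There H3K4me3 covered 5.88% ± 0.605 at 10000 bp and 0.437% ± 0.255 at the midpoint. At 10000 bp from Myc regions with none of the 3, H3K27ac cover was 8.25% ± 1.81, RNAPII 3.70% ± 1.41 and H3K4me3 2.90% ± 0.280. At the same distance from fully marked regions these were 21.2% ± 3.18, 18.7% ± 6.96 and 5.55% ± 0.610. The cover expected over the whole genome was not computed.

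**Figure D2:**
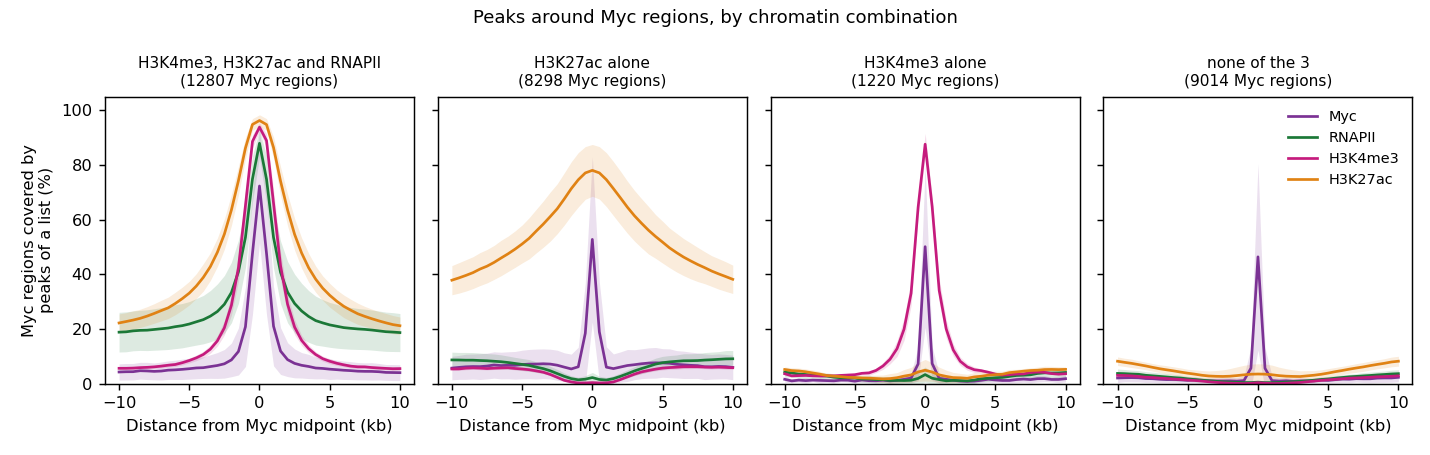
Percent of Myc regions covered by peaks of a list of each antibody (lines, mean over lists; bands, SD; n = 6 lists for Myc and 4 for the others) against distance from the midpoint of the Myc region in kb. The panels are 4 of the 8 combinations that were used to sort the regions, so cover at the midpoint is set by the sorting. H3K27ac alone keeps 38.2% cover at the right edge, and regions with none of the 3 antibodies stay at or below 8.25% there.

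The authors' Myc score was highest where all 3 chromatin antibodies met. Scores, whose scale is not given, were ranked within each list as percentiles, and the median percentile of a class was taken per tumour over peaks in Myc regions. Peaks with H3K4me3, H3K27ac and RNAPII had a median percentile of 59.8, 56.1, 65.8, 73.9, 70.7 and 79.4 in T1 to T6. Peaks with none of the 3 had 31.0, 35.6, 29.5, 32.1, 40.04 and 49.3. The fully marked class was higher in each of the 6 tumours, and the lowest fully marked value lay above the highest unmarked one. Over tumours the medians were 67.6 ± 8.78 for the fully marked class, 53.0 ± 9.83 for H3K27ac with RNAPII, 43.7 ± 10.1 for H3K27ac alone, 43.2 ± 8.09 for H3K4me3 with H3K27ac, 42.5 ± 7.11 for H3K4me3 with RNAPII, 36.7 ± 8.01 for RNAPII alone, 36.2 ± 7.43 for none and 34.5 ± 4.38 for H3K4me3 alone (SD, n = 6). The last 3 lie within each other's spread. In the authors' units, T6 had a median score of 120.56 in the fully marked class and 33.02 with none of the 3, and T1 had 25.04 and 14.35. By percentile, T6 stood above the other tumours in all classes but H3K4me3 alone. In T6, 69.6% of the peaks lay in Myc regions and entered the classes, against 86.1% in T5 and at least 96.0% in the others.

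Of the 7 contrasts between classes, 6 passed the threshold, each in 6 of 6 tumours (two-sided exact sign-flip permutation p = 0.0312, the smallest that 6 tumours allow, adjusted p = 0.0365). Peaks with H3K4me3 stood 21.3 ± 6.90 points above those without it over all peaks, and 19.2 ± 7.55 points above among peaks with H3K27ac (SD, n = 6). Peaks with H3K27ac stood 28.8 ± 4.61 points above those without it among H3K4me3 peaks, and 11.0 ± 2.31 points above where H3K4me3 was missing. Peaks with RNAPII stood 24.5 ± 5.73 points above those without it where both marks were present. Where H3K27ac was the only mark they stood 9.33 ± 0.704 points above, with 8.63 to 10.4 points in the 6 tumours. With list 1 of every antibody left out, which redrew the regions and classes, the RNAPII difference there was 5.71 points. Where neither mark was present the difference was 0.470 ± 1.19 points, positive in 2 of 6 tumours (exact sign-flip permutation p = 0.5). With a stricter score limit on the histone peaks, the H3K27ac difference among H3K4me3 peaks was 15.8 points, the RNAPII difference with H3K27ac as the only mark 15.5 points, and that with neither mark 10.1 points, and all 7 contrasts passed (exact sign-flip permutation adjusted p = 0.0312). Whether the RNAPII difference itself depended on the marks was not tested.

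**Figure D3:**
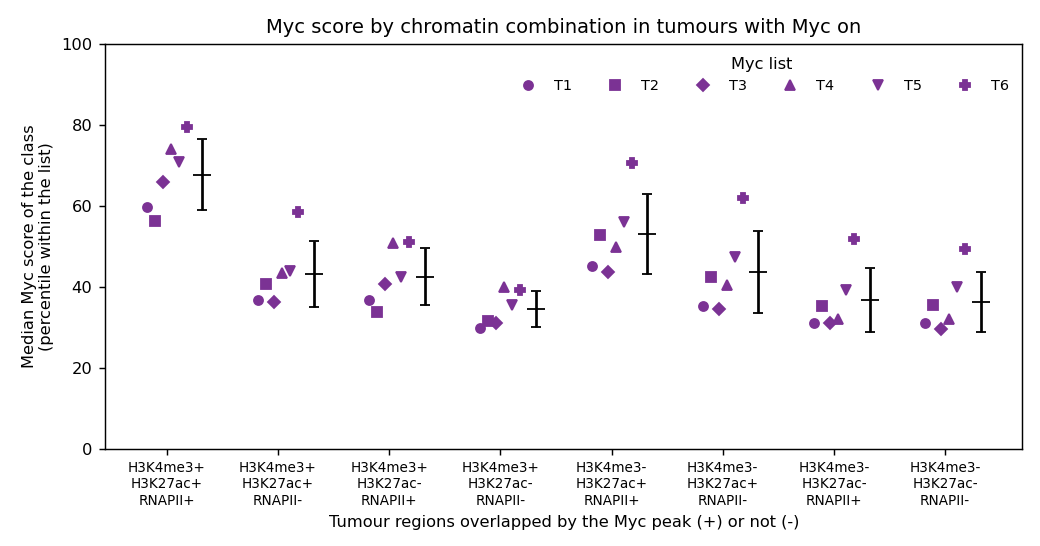
Median score percentile of Myc peaks within their own list (y axis, 0 to 100) for the 8 chromatin combinations, 1 symbol for each of the 6 tumours, with the mean and SD beside them. The fully marked class runs from 56.1 to 79.4, and peaks with none of the 3 run from 29.5 to 49.3.

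Score and width of Myc peaks were closely tied, and the contrasts shrank at equal width. Across the peaks of a list, Spearman's rho between score and width was 0.726, 0.691, 0.767, 0.803, 0.791 and 0.794 in T1 to T6, as a description over peaks that share a library. Inside 5 strata of width, the H3K4me3 contrast over all peaks fell to 1.26 points (exact sign-flip permutation adjusted p = 0.328). None of the 7 contrasts passed after adjustment. H3K27ac with H3K4me3 (6.85 points), RNAPII with both marks (6.56) and RNAPII with H3K27ac alone (2.75) still had the smallest p that 6 tumours allow (exact sign-flip permutation p = 0.0312, adjusted p = 0.0729). Among the widest peaks (stratum 5 of 5), fully marked peaks had a median percentile of 86.2 ± 3.10, against 73.1 ± 4.62 for peaks with none of the 3 (SD, n = 6). Among the narrowest (stratum 1) the order was the other way, at 17.2 ± 4.63 for fully marked peaks and 21.6 ± 4.52 for peaks with none. Fully marked peaks made up 79.3% ± 8.16 of the widest stratum and 26.3% ± 11.6 of the narrowest, while peaks with none made up 0.930% ± 0.982 of the widest and 27.7% ± 12.3 of the narrowest. These values by stratum are a description. With regions restricted to those found in all tumours, no contrast passed either, with 10.3 points for H3K4me3 over all peaks (exact sign-flip permutation adjusted p = 0.109). The H3K27ac and RNAPII contrasts named above for the width strata again had the smallest p (exact sign-flip permutation p = 0.0312, adjusted p = 0.0729). Over the 8 alternatives the adjusted p of the H3K4me3 contrast over all peaks ran between 0.0312 and 0.328.

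The strongest Myc regions of each combination were named by their score relative to the median of their list, among regions found in all 6 tumours. The first fully marked region was chr11:6423147-6430787 (mm9, 1-based, as are all coordinates here), 7641 bp wide. Its highest Myc score was 354.27, 282.95, 524.36, 593.21, 928.16 and 962.52 in T1 to T6, or 14.9 to 41.4 times the list median. RNAPII covered 77.1% to 92.7% of it in the 4 tumours, H3K4me3 43.5% to 61.3% and H3K27ac 77.5% to 100%. A Myc peak also lay there in 3 of 3 switched-off tumours and 4 of 4 control livers. The next, chr11:59857992-59860883, reached 15.7 to 40.2 times the list median.

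At the strongest region with H3K27ac alone, Myc covered chr3:122014918-122017911 to 33.8%, 26.6%, 32.5%, 52.9%, 81.0% and 100% in T1 to T6. H3K27ac covered all of it in each of 4 tumours and in 3 of 3 switched-off tumours, and no control liver had a peak of any of the 4 antibodies there. H3K4me3 had no peak in the tumours with Myc on and one in 3 of 3 switched-off tumours, with a mean cover of 66.8% ± 20.9 (SD, n = 3). The strongest regions with H3K27ac and RNAPII were chr4:141296997-141298865, where H3K27ac covered all of the region in every one of the 11 lists of that antibody, and chr1:84847093-84849804, whose RNAPII cover was 100%, 94.8%, 62.6% and 9.48% in T1 to T4.

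Myc regions with none of the 3 antibodies could carry high scores in all 6 tumours. At chr13:99537061-99539280 the highest score was 90.38, 123.15, 68.73, 180.5, 277.19 and 674.21 in T1 to T6, or 2.62 to 19.8 times the list median. No other list of the 46 had a peak there. In all, 682 of the 9014 regions of this class were found in all 6 tumours.

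Myc peaks were narrow, RNAPII and H3K4me3 peaks of middle width, and H3K27ac peaks wide. Median widths of the Myc lists were 599, 428, 572, 599, 669 and 762 bp in T1 to T6. RNAPII lists had 2465.5, 2600, 4811 and 1928 bp, H3K4me3 lists 2799, 2608.5, 2267 and 2454 bp, and H3K27ac lists 6790, 5657.5, 6951.5 and 6145 bp. The Myc lists lay below every list of the others, at 0.215 times the RNAPII width, 0.236 times the H3K4me3 width and 0.0936 times the H3K27ac width (log2 differences -2.22, -2.08 and -3.42). Each passed the two-sided exact permutation test over lists (p = 0.00476, the smallest that 6 against 4 lists allow, adjusted p = 0.00952). RNAPII peaks were narrower than H3K27ac peaks by 1.197 on the log2 scale and H3K4me3 peaks by 1.33 (exact permutation p = 0.0286, adjusted p = 0.0343 for each). By mean in place of median width, RNAPII minus H3K27ac was -0.85 and no longer passed (exact permutation adjusted p = 0.0571). RNAPII and H3K4me3 did not separate by median width, with a log2 difference of 0.14 (exact permutation p = 0.771); without T3 it was -0.18, and by mean width it was 0.75 and passed (exact permutation adjusted p = 0.0343). Callers and their settings can differ between antibodies, so these are widths of the lists as deposited.

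**Figure D4:**
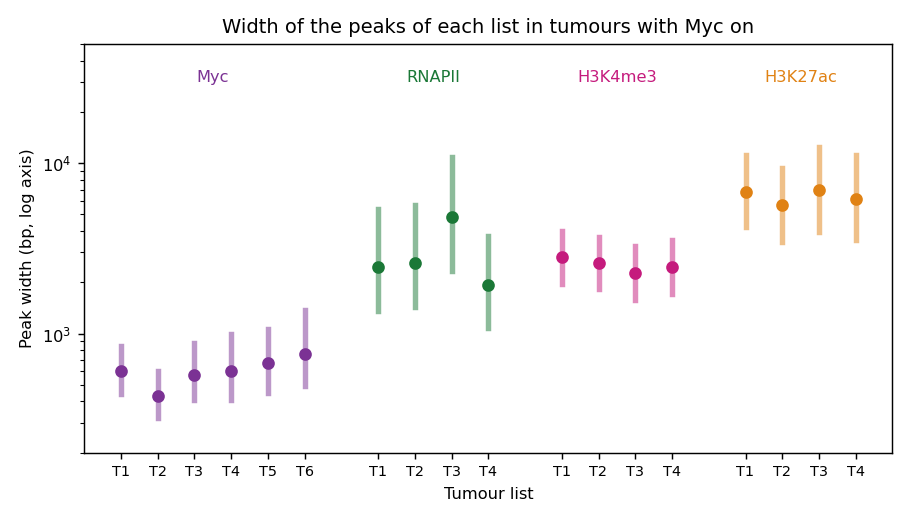
Median peak width (points) and the range between the lower and upper quartile (bars) of each tumour list, in bp on a log axis, for 6 Myc lists and 4 lists of each other antibody. Myc medians lie between 428 and 762 bp and H3K27ac medians between 5657.5 and 6951.5 bp, and RNAPII T3 stands above the other RNAPII lists at 4811 bp.

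The same-numbered H3K4me3 and H3K27ac lists carried the same sample name in their headers for 4 of 4 tumours, so these lists pair by tumour. With the pairs as blocks the width difference was again -1.33, in 4 of 4 tumours, and the exact sign-flip permutation p was 0.12, the smallest that 4 pairs allow (adjusted p = 0.15).

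With a 1 bp overlap and Myc regions of at least 2 tumours, RNAPII peaks that met Myc had lower median widths than those that did not. H3K4me3 and H3K27ac peaks that met Myc had higher ones. The midpoint rule did not keep this order. RNAPII peaks with Myc had median widths of 2214, 2445, 4375 and 1889 bp in T1 to T4, against 4614, 4774, 7070 and 2803 bp without Myc. H3K4me3 peaks with Myc had 2894, 2706, 2375 and 2564 bp, against 2153.5, 1834, 1590 and 1802 bp without. H3K27ac peaks with Myc had 6814, 5672, 6975 and 6155 bp, against 5521, 4612, 6370 and 5101.5 bp without. RNAPII was narrower with Myc in 4 of 4 tumours (log2 difference -0.82 ± 0.23), and H3K4me3 (0.52 ± 0.07) and H3K27ac (0.25 ± 0.08) were wider in 4 of 4 (SD, n = 4). The exact sign-flip permutation p was 0.12 for each, the smallest 4 lists allow, so no call is possible. A wider peak meets a Myc region more easily. With the midpoint of the peak required inside a Myc region, the difference was -1.65 for RNAPII, -0.060 for H3K4me3 and -0.92 for H3K27ac, so that all 3 were negative. With Myc regions present in all 6 tumours and a 1 bp overlap it was -0.020 for RNAPII (exact sign-flip permutation p = 1), 0.53 for H3K4me3 and 0.29 for H3K27ac, so the RNAPII difference was close to 0 there.

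Inside chromatin regions, Myc sat towards the middle of histone-marked stretches and more evenly along RNAPII stretches. Each region was cut into 3 zones of equal length by distance from its midpoint. The inner zone held 49.8% ± 2.32 of the Myc midpoints in H3K4me3 regions, 48.5% ± 1.29 in H3K27ac regions and 38.1% ± 0.718 in RNAPII regions (SD, n = 6 Myc lists), and the outer zone held 13.1% ± 1.16, 14.7% ± 1.38 and 27.7% ± 0.815. The gapped histone peaks mark denser blocks within each broad peak. Blocks made up 18.9% ± 2.46 of the H3K27ac peak length and held 53.6% ± 1.87 of the midpoints of Myc regions inside these peaks, and they made up 50.9% ± 4.76 of the H3K4me3 length and held 82.0% ± 4.04 (SD, n = 4 lists). These are descriptions without a test.

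Wide H3K27ac regions held many Myc regions each, but no more per length. An H3K27ac region held a mean of 1.98 Myc regions and 43.1% held 2 or more, against 1.32 and 24.9% for RNAPII and 1.05 and 15.4% for H3K4me3. Per 10 kb, however, H3K27ac held 1.55 Myc regions, RNAPII 1.44 and H3K4me3 2.82. When H3K27ac regions were split into 4 equal groups by width, the widest group had a median width of 23399.5 bp, and there 28.6% held 5 or more Myc regions. Per 10 kb that group held 1.39 Myc regions, against 2.66 in the narrowest group, and Myc covered 23.6% of its length, against 40.2%. The H3K27ac region with most, chr2:167576986-167724331, was 147346 bp wide and held 33. Myc covered 4.86%, 3.51%, 5.90%, 14.8%, 21.7% and 29.2% of it in T1 to T6, and H3K27ac covered 75.6% to 99.0% of it in the 4 tumours. The widest H3K27ac region, chr8:129157684-129412431, spanned 254748 bp with 26 Myc regions, no H3K4me3 peak in any of the 4 tumours and RNAPII on 3.18% to 5.90% of its length. The next widest, chr17:48014721-48197557, held 28 Myc regions, and H3K27ac covered 85.9% ± 10.0 of it in switched-off tumours (SD, n = 3), against 9.03% ± 8.03 in control liver (SD, n = 4). It covered 92.4%, 76.6%, 90.4% and 85.2% in T1 to T4.

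Among RNAPII regions, chr14:26265589-26388497 held most Myc regions, 25 over 122909 bp, and H3K27ac covered 75.6% to 98.6% of it. The widest RNAPII region, chr6:28667292-28853997, held 4 Myc regions over 186706 bp. RNAPII covered 91.1%, 33.6%, 85.6% and 7.61% of it in T1 to T4, with T4 lowest, and no H3K27ac peak was called there in these tumours. Of the 14333 RNAPII regions, 1341 (9.36%) overlapped no region of another antibody. Their median width was 9496 bp, against 4774 bp where all 4 met, and 18.9% of them were found in all 4 tumours, against 89.6%. The widest of those with no peak of another antibody in any tumour, chr1:67232690-67281699, was covered to 77.9%, 94.2%, 52.8% and 3.38% in T1 to T4 and to 100% in 3 of 3 switched-off tumours, and RNAPII had a peak there in 4 of 4 control livers.

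The H3K4me3 region with most Myc regions, chr7:149838016-149854329, held 7 over 16314 bp. Myc covered 6.54%, 1.78%, 24.6%, 38.2%, 48.5% and 48.3% of it in T1 to T6, H3K4me3 72.6% to 99.5% in T1 to T4 and H3K27ac 92.2% to 100%. No control liver had a Myc, RNAPII or H3K27ac peak there, and 1 of 4 had an H3K4me3 peak. On the same chromosome lay the widest Myc region, chr7:149746234-149763866, at 17633 bp. Myc covered 38.8%, 32.7%, 49.9%, 78.2%, 55.5% and 99.2% of it in T1 to T6. H3K27ac covered all of it in the 4 tumours with Myc on and the 3 switched-off tumours, and RNAPII covered 52.2% to 100%. None of the 16 control lists had a peak there, and neither did the Myc lists of switched-off tumours.

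H3K4me3 regions without any of the other antibodies numbered 1640 (11.0%), with a median width of 2362.5 bp, against 3614 bp where all 4 met. Of these, 54.8% were found in all 4 tumours, against 97.0% of the H3K4me3 regions where all 4 met. H3K27ac regions without the others numbered 49 (0.366%), of which 6 were in all 4 tumours. The score of a histone peak went with how many tumours had Myc there. H3K4me3 peaks had a median score percentile of 65.3 ± 0.587 where 6 tumours had a Myc peak, 30.5 ± 0.707 with 3 and 12.8 ± 0.588 with 0, and H3K27ac peaks had 59.9 ± 2.03, 19.2 ± 1.097 and 9.55 ± 1.74 (SD, n = 4 lists). These values share their regions and are given as a description. Width differed too. In list T1, with Myc in 0, 3 and 6 tumours, H3K4me3 peaks had median widths of 2203.5, 2081 and 3180 bp. H3K27ac peaks had 5398, 6118 and 7323 bp there. The part of width in the scores was not tested.

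Tumour regions were also looked for in tissue without transgenic Myc expression. The share of tumour regions with a peak of the same antibody was compared between the switched-off tumours and control liver, for regions with a Myc peak in 0 or 1, 2 to 5, or 6 tumours. H3K4me3 regions with Myc in 0 or 1 tumours were found in 94.1%, 85.1% and 95.5% of cases in switched-off tumours 1 to 3, against 40.2%, 38.1%, 68.6% and 73.4% in control livers 1 to 4. Those with Myc in 6 tumours were found in 99.7% to 99.9%, against 92.3% to 96.6%. H3K27ac regions with Myc in 2 to 5 tumours were found in 78.6%, 92.6% and 88.5%, against 38.3%, 48.4%, 66.7% and 65.7%, and those with Myc in 6 tumours in 89.6%, 97.0% and 94.8%, against 61.9%, 68.8%, 84.4% and 83.2%. The switched-off tumours lay above all controls in these 4 sets. They did so too for H3K4me3 regions with Myc in 2 to 5 tumours, at 98.5%, 97.2% and 98.3%, against 76.4%, 73.9%, 87.4% and 89.2%. The groups overlapped for the 133 H3K27ac regions with Myc in 0 or 1 tumours, at 48.9%, 89.5% and 82.0%, against 22.6%, 30.8%, 50.4% and 44.4%. In all 6 sets of the histone marks the wild-type livers 3 and 4 lay above livers 1 and 2. Their lists were also longer. H3K4me3 lists held 15011 and 15821 peaks in livers 3 and 4, against 13581 and 12999 in livers 1 and 2. H3K27ac lists held 14140 and 13573, against 9696 and 11202. Genotype and list length cannot be told apart here.

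For RNAPII the groups overlapped in all 3 sets. RNAPII regions with Myc in 6 tumours were found in 83.0%, 82.5% and 91.9% of cases in switched-off tumours, against 90.6%, 86.7%, 86.3% and 87.4% in control liver. In both groups and for all 3 antibodies, the mean share was higher with Myc in 6 tumours than with Myc in 0 or 1. The Myc-on lists that defined the regions had the same order. There the mean shares were 94.0% against 70.7% for RNAPII, 98.7% against 84.1% for H3K4me3 and 95.8% against 63.3% for H3K27ac. These differences were not tested. The mean differences between switched-off tumours and control liver were 36.5, 16.3 and 5.25 points for H3K4me3 with Myc in 0 or 1, 2 to 5, and 6 tumours, 36.4, 31.8 and 19.3 points for H3K27ac, and 8.51, -5.72 and -1.98 points for RNAPII. Against the wild-type livers alone they were 20.6, 9.74 and 3.58 points for H3K4me3 and 26.1, 20.3 and 10.04 points for H3K27ac, with 2 control lists and so no exact permutation p below 0.1. None of the 9 differences against all 4 livers passed after adjustment (two-sided exact permutation, smallest p = 0.0286, lowest adjusted p = 0.103). At an unadjusted p under 0.05 stood 2 of them, H3K4me3 with Myc in 6 tumours and H3K27ac with Myc in 2 to 5. The lists of switched-off tumours were longer for H3K4me3 (19006 ± 757 peaks, against 14353 ± 1293 in control liver) and for H3K27ac (16014 ± 2126, against 12153 ± 2074), and shorter for RNAPII (12996 ± 1600, against 17326 ± 2523; SD, n = 3 and 4). The part of list length in these shares was not tested.

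**Figure D5:**
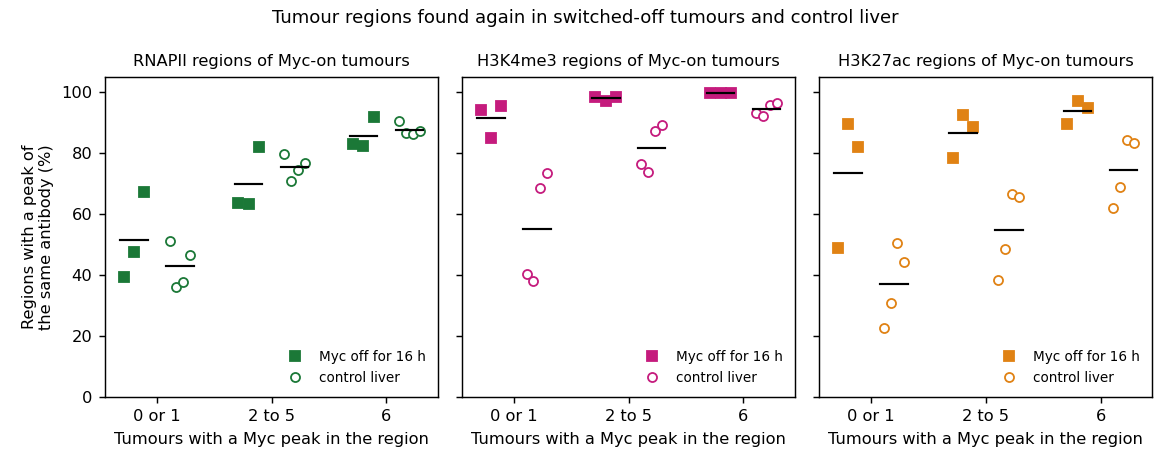
Percent of RNAPII, H3K4me3 and H3K27ac tumour regions with a peak of the same antibody in each switched-off tumour (filled squares, n = 3) and each control liver (open circles, n = 4), by the number of tumours with a Myc peak in the region; lines are means. H3K4me3 regions with Myc in 6 tumours lie at 99.7% or above in switched-off tumours and at 92.3% to 96.6% in control liver.

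The overlap between the chromatin antibodies was also set against that in control liver, a test added after the lists were read. H3K27ac peaks lay in RNAPII regions of their own condition to 80.0% ± 4.13 in tumours, against 86.9% ± 3.53 in control liver (SD, n = 4 each, exact permutation p = 0.0857). H3K4me3 peaks lay in RNAPII regions to 78.4% ± 1.34, against 82.7% ± 4.71, and RNAPII peaks in H3K4me3 regions to 73.4% ± 8.18, against 68.5% ± 6.71. None of the 6 comparisons passed, adjusted or not (exact permutation, lowest adjusted p = 0.429), and the groups overlapped in each.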

How the data were processed

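Peak lists of Myc, RNAPII, H3K4me3 and H3K27ac were taken as deposited, 1 list for each library, so peaks had been called per library. BWA 0.6.2, SAMtools and build mm9 are named per the submitters' processing notes. Which caller settings and background library were applied is not given in the sources used here. Each Myc list holds MACS-type peak names and a score from the authors whose scale is not given. The histone lists are gapped-peak tables with a whole-number score, per the file headers from a broad call. The RNAPII lists hold positions only. The input sample was not analysed here.

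The antibodies, members and lists were chosen with earlier results of these data known. Regions were merged (1 bp), kept if present in at least 2 tumours, and classed by overlap of at least 1 bp. Score percentiles were ranks within a list. Tests were two-sided exact permutation over lists, or exact sign flips within lists, with Benjamini-Hochberg adjustment within each family (7 score contrasts, 12 overlaps, 6 widths, 3 widths by Myc, 9 persistence comparisons, 6 comparisons with control liver) and a threshold of 0.05. Replicate numbers pair H3K4me3 and H3K27ac lists, since same-numbered lists share a sample name in 4 of 4 headers (correlation of same-numbered deviations 0.029 to 0.158). Named regions were, for each of the 8 combinations, the 2 strongest Myc regions found in all 6 tumours, the 2 widest regions and the widest lone region of each antibody, and the chromatin region with most Myc regions; 31 entries resulted and those the text turns on are printed. The sequence of these regions is not printed, as no mm9 genome was used. The computation of the H3K4me3 score contrast was checked on the 6 Myc lists, 202716 peaks in all, with scores shuffled within each list. Simulated shifts of 0 and 1 on the log2 scale were recovered as -0.01 and 1.01 over the peaks in Myc regions. Shuffling removes the tie between score and width, so this checks the computation and not the reported contrasts. Python 3.11.15, numpy 2.4.6, pandas 2.3.3, scipy 1.17.1 and matplotlib 3.10.9 were used.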

Additional observations from a re-analysis of the deposited data

Results flagged for a closer look

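In 1 of 54 groups of 4 or 6 lists, a single list stood apart by Dixon's criterion at the 95% level, where chance flags about 1 group in 20. Myc peaks with H3K4me3 and H3K27ac but without RNAPII had a median score percentile of 58.3 in T6. The nearest other tumour stood at 43.8 and the lowest at 36.3.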

How the results depend on the processing

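The depth behind each list is unknown and limits every absent peak. Leaving out a tumour cannot give a sign-flip p below 0.0625, and same-numbered lists as blocks not below 0.12, so a lost call there says nothing about stability. For scores, overlaps and widths, leaving out a tumour removed its number from every antibody, so any regions and classes used were redrawn. For the score contrasts, in the order H3K4me3 (all peaks), H3K4me3 (with H3K27ac), H3K27ac (with H3K4me3), H3K27ac (without H3K4me3), RNAPII (both marks) and RNAPII (H3K27ac alone), regions present in all tumours gave 10.3, 10.5, 11.8, 1.94, 12.7 and 3.95 points (adjusted p 0.0729 to 0.109), and 5 width strata gave 1.26, 2.01, 6.85, 0.145, 6.56 and 2.75 (0.0729 to 0.719). The replicate block, with each Myc list classed by the same-numbered tumour, gave 22.9, 21.3, 26.9, 10.3, 30.2 and 11.9. Leaving out each tumour gave 19.3 to 23.6, 17.4 to 21.7, 26.1 to 30.2, 9.41 to 11.2, 23.3 to 26.3 and 5.71 to 12.04. RNAPII with neither mark gave -1.04 in width strata, -0.547 over all peaks of each list, 10.1 with a stricter histone score limit (passing; the same limit gave 15.8 for H3K27ac with H3K4me3 and 15.5 for RNAPII with H3K27ac alone), and -0.361 to 1.60 without 1 tumour. These 6 contrasts kept their direction under every alternative run, and the causes of the changes were not tested.

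The overlap comparisons changed most. With regions present in all tumours these passed: in Myc regions RNAPII minus H3K27ac (-11.0 points) and H3K4me3 minus H3K27ac (-13.9), in RNAPII regions Myc minus H3K4me3 (-18.2) and Myc minus H3K27ac (-17.3), in H3K4me3 regions Myc minus RNAPII (-22.7) and Myc minus H3K27ac (-22.5), and in H3K27ac regions RNAPII minus H3K4me3 (5.90). RNAPII minus H3K4me3 in Myc regions turned to 2.88, and H3K4me3 minus H3K27ac in RNAPII regions to 0.825. The midpoint rule turned RNAPII minus H3K27ac (1.74) and H3K4me3 minus H3K27ac (14.8) in Myc regions, H3K4me3 minus H3K27ac in RNAPII regions (11.5), and Myc minus RNAPII (3.03) and RNAPII minus H3K4me3 (-1.84) in H3K27ac regions. Requiring 50% of the shorter interval turned RNAPII minus H3K27ac in H3K4me3 regions to -1.68. A stricter score limit, which leaves RNAPII whole, gave -20.5, -23.0 and -2.50 in Myc regions (RNAPII minus H3K4me3, RNAPII minus H3K27ac, H3K4me3 minus H3K27ac), -25.3 and -23.2 in RNAPII regions (Myc minus H3K4me3, Myc minus H3K27ac) and -31.0 in H3K4me3 regions (Myc minus H3K27ac), all passing. It turned H3K4me3 minus H3K27ac in RNAPII regions (2.07), RNAPII minus H3K27ac in H3K4me3 regions (-25.2), and in H3K27ac regions Myc minus RNAPII (4.21), Myc minus H3K4me3 (-17.1) and RNAPII minus H3K4me3 (-21.4); of these 5, the ones at -25.2, -17.1 and -21.4 passed (exact permutation adjusted p = 0.0381). Lists of equal length made these pass: RNAPII minus H3K27ac (-16.2) and H3K4me3 minus H3K27ac (-16.9) in Myc regions, Myc minus H3K4me3 (-6.36), Myc minus H3K27ac (-10.8) and H3K4me3 minus H3K27ac (-4.42) in RNAPII regions, Myc minus RNAPII (-12.3) and Myc minus H3K27ac (-16.2) in H3K4me3 regions, and Myc minus H3K4me3 in H3K27ac regions (8.503). They turned RNAPII minus H3K4me3 in Myc regions (0.700), RNAPII minus H3K27ac in H3K4me3 regions (-3.84) and Myc minus RNAPII in H3K27ac regions (3.96). The replicate block turned Myc minus RNAPII in H3K27ac regions to 3.02. The calls above for H3K4me3 minus H3K27ac took the lists as independent, though same-numbered lists of these antibodies pair by tumour. Without 1 tumour, Myc minus H3K4me3 in H3K27ac regions ran from -2.47 to 4.13, H3K4me3 minus H3K27ac in RNAPII regions from -2.31 to 0.687, and RNAPII minus H3K27ac in H3K4me3 regions from -1.95 to 1.46.

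For log2 widths, mean in place of median width gave 0.75 for RNAPII minus H3K4me3, which passed, and -0.85 for RNAPII minus H3K27ac, which did not (adjusted p = 0.0571, exact permutation). The replicate block gave -2.35 (Myc minus RNAPII), -2.21 (Myc minus H3K4me3), -3.55 (Myc minus H3K27ac), -1.20 (RNAPII minus H3K27ac) and -1.33 (H3K4me3 minus H3K27ac). Without 1 tumour, RNAPII minus H3K27ac ran from -1.42 to -1.04, H3K4me3 minus H3K27ac from -1.41 to -1.24, with no call since 3 against 3 lists cannot go below 0.1, and RNAPII minus H3K4me3 from -0.18 to 0.30. With and without Myc, the midpoint rule turned H3K4me3 to -0.060 and H3K27ac to -0.92 and took RNAPII to -1.65, while Myc regions of all 6 tumours took RNAPII to -0.020. No paired fit was run for the widths by Myc beyond the pairing within a list.

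For persistence, RNAPII with Myc in 6 tumours turned to 3.07 by midpoint and ran from -5.50 to 0.354 without 1 replicate number, and RNAPII with Myc in 0 or 1 tumours ran from -1.08 to 17.3. Against control liver, H3K4me3 peaks in H3K27ac regions turned to 7.78 with regions in at least 3 lists and 4.62 under a stricter score limit, and ran from -2.002 to 8.51 without 1 number; that limit also turned RNAPII in H3K4me3 regions to -1.41 and H3K4me3 in RNAPII regions to 0.783. These 5 alternatives to the comparison with control liver were chosen after seeing the data. The replicate block changed no other call.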

Other observations

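Where Myc was present, chromatin with H3K4me3 and RNAPII but without H3K27ac lay on the X chromosome more often than the other combinations. Without Myc, this combination stood at 5.05% of its RNAPII regions and 4.67% of its H3K4me3 regions. Of the Myc regions of this kind 9.31% were on X, against 1.89% of all Myc regions. RNAPII regions with Myc and H3K4me3 but without H3K27ac stood at 10.8%, against 2.41% of all RNAPII regions, and H3K4me3 regions with Myc and RNAPII but without H3K27ac at 9.54%, against 3.01% of all H3K4me3 regions. H3K27ac regions as a whole stood at 1.96%. These shares rest on overlapping regions of the same lists and were not tested. The sex of the animals was not given.

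Lone H3K4me3 regions stood at 5.91% on X. Myc regions with H3K27ac but without H3K4me3 stood at 0.771% without RNAPII and 0.452% with RNAPII.

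The widest Myc region that met no peak of another antibody lay on the contig 9_random from 53824 to 57693. It was present in T5 and T6 alone, with highest scores of 317.44 and 545.74, or 14.2 and 16.0 times the list median. Myc had 4 regions on this contig, and RNAPII, H3K4me3 and H3K27ac had 0 each. T5 and T6 had no chromatin lists, so this region cannot show whether Myc lay there without the marks.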
